A study of Mus musculus with 4 samples.

Results

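Interferon-stimulated genes are the genes that a cell switches on when an interferon reaches its surface, and 41 of them were followed here by gene symbol in the epithelium of mice raised with and without microbes. The array carried a probe set of that symbol alone for 38 of the 41 genes, through 59 probe sets, among 18193 genes in all. Of these 38, 37 were above the floor (an intensity of 62.4, the median of all probe sets) on at least 1 array, 32 were above it on all 4, and 24 passed the 75th percentile of all intensities (259) on at least 1 array. Mx2 stayed under the floor throughout, between 1 and 3.45. The probe set for Isg15, the ubiquitin-like modifier of the system, also names a second gene and was given no value, while Oas1g and Ifi44 were given no array value here and enter the promoter counts only.

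The samples were laser-captured epithelial cells of ileum and proximal colon from 4 C57/Bl6 control mice, called wild type in the sample names, and from 4 germ-free mice of the same strain, reared without any microbes. Every group was 1 array, 4 in all, with RNA from about 16000 cells, about 4000 from each of the 4 mice, pooled before hybridisation, so neither the mice nor the arrays give a spread within a group. No test and no p-value is therefore possible for any difference below. Age and sex are not in the labels, and staining with hematoxylin is mentioned for the germ-free samples only.

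As background, interferons of type I act through the receptor pair Ifnar1 and Ifnar2, and those of type III, the lambda interferons, through Ifnlr1 and Il10rb. Both activate Jak kinases, and a complex that includes Stat2 and Irf9 then binds the interferon-stimulated response element (ISRE) in promoters. Interferon gamma, of type II, acts through Ifngr1 and Ifngr2 and leads to binding at the gamma-activated site (GAS). In the gut, epithelial cells are known for answering lambda interferons, and some interferon-stimulated genes are kept at a resting level by signals from the microbiota.

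Promoter windows of 300 bases, from 250 before to 50 after the transcription start, were in the RefSeq table (build GRCm38.p6) for 30 of the 41 genes. Dhx58, Zbp1, Oas2, Usp18, Parp9, Parp14, Mx1, Mx2, Iigp1, Rtp4 and Ifi27l2a were not among them. The ISRE core was searched as GAAANNGAAA on both strands; a match on the strand opposite to the gene appears below as its reverse complement, which begins with TTTC. It was in 17 of the 30 genes (56.7%), against 3.99% of all 27025 genes in the table. A gene counted if any of its windows held the letters searched. Irf1, Irf9, Ifit2, Gbp3 and Trim30a each had a second window. The shorter core bound by interferon regulatory factors, AANNGAAA, which lies within every ISRE core, was in 23 of the 30 (76.7%, against 26.7% of all genes), and the GAS letters TTCNNNGAA, which read the same on both strands, were in 7 (23.3%, against 9.55%).

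The promoters of Ifit1 (chr19:34640639-34640938, plus strand), Ifit3 (chr19:34583279-34583578, plus strand) and Rsad2 (chr12:26456403-26456702, minus strand) are shown because these genes had large differences between the colon arrays, and that of Ddx58 (chr4:40239776-40240075, minus strand) because it has the same core and differed the other way. Capitals mark the ISRE cores, all 6 of which lie on the strand opposite to the gene. Counting -1 as the last base before the start and 1 as the first base of the transcript, they run from -104 to -95 and from -85 to -76 in Ifit1, from -156 to -147 and from -122 to -113 in Ifit3, from -120 to -111 in Rsad2, and from 3 to 12 in Ddx58.
Ifit1: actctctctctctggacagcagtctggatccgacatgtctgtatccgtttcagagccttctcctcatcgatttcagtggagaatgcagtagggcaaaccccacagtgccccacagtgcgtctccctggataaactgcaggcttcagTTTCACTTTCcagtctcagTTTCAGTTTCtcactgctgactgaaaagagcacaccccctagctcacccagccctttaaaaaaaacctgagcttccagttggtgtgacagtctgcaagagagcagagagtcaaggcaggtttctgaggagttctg
Ifit3: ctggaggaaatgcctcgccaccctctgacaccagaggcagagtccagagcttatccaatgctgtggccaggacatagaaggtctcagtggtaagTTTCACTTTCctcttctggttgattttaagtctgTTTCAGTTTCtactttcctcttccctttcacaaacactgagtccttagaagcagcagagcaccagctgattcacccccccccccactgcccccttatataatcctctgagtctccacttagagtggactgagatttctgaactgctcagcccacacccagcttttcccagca
Rsad2: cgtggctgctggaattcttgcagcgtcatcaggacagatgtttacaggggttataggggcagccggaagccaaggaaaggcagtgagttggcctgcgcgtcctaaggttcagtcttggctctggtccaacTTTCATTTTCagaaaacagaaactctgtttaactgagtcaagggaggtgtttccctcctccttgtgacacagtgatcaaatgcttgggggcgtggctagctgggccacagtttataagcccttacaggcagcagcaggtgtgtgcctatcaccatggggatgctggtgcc
Ddx58: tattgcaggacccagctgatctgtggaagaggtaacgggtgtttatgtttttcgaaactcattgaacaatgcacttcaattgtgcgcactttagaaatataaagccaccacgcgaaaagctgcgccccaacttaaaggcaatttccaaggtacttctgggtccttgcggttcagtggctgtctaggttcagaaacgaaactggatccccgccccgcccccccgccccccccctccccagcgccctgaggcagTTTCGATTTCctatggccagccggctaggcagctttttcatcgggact

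Stretches of 30 bases around the core are shown for genes of other roles: Oas3 (chr5:120777715-120777744, minus strand), Igtp (chr11:58199512-58199541, plus), Gbp2 (chr3:142620594-142620623, plus), Oas1a (chr5:120907526-120907555, minus) and Trim30a (chr7:104465210-104465239, minus). The search fixed the GAAA letters, so only the bases at N and outside the core could differ. Capitals mark 1 core in each; Oas1a has a second one, from -14 to -5, that overlaps the core in capitals and runs on into the lower case.
Oas3: gcagggaggaGAAAACGAAAgtgaagggag
Igtp: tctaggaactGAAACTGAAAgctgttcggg
Gbp2: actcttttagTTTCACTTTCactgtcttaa
Oas1a: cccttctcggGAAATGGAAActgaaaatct
Trim30a: agttctttagTTTCTTTTTCtcagttcctg

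In all, the 17 genes held 28 cores, counting overlapping ones, and 16 of these, in 10 genes, lay within the 100 bases before the start. Ifit2 and Lgals3bp had no such core in their windows.

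**Figure D1:**
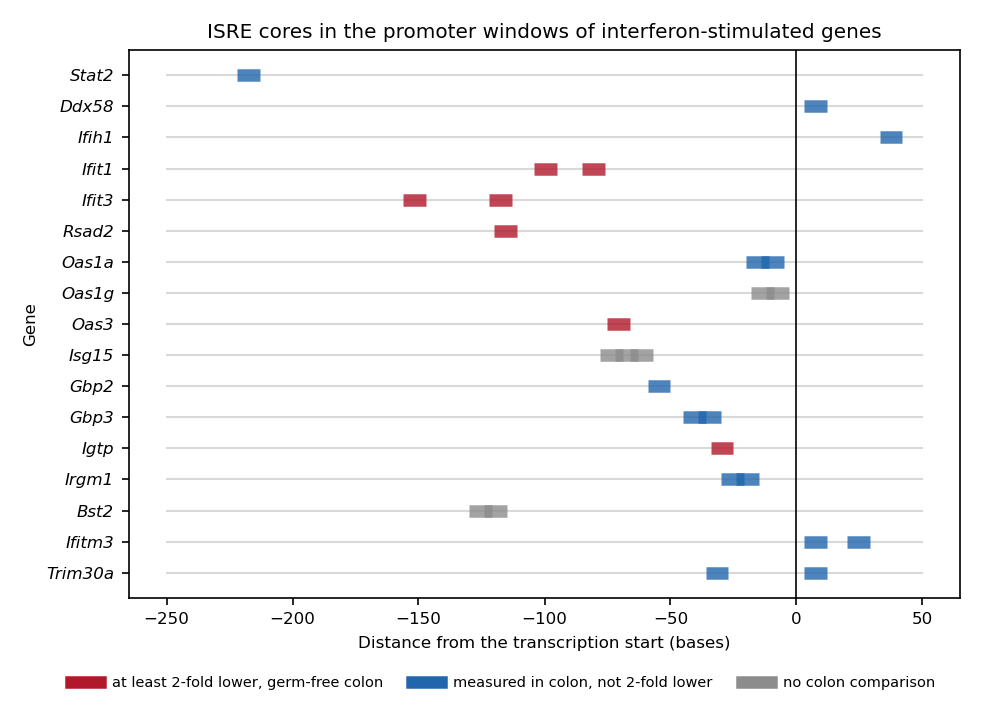
Position of every ISRE core (bars) in the 300-base promoter windows of the 17 genes that hold one; the x axis is the distance in bases from the transcription start (vertical line). Red marks genes at least 2-fold lower in germ-free colon, blue other genes measured in colon, and grey genes with no colon comparison; cores of both colours lie close to the start.

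In colon, most of the interferon-stimulated genes followed here were lower on the germ-free array than on the wild type array. Of 36 genes measured there (above the floor on at least 1 of both arrays), 10 were at least 2-fold lower, which is 27.8% against 3.23% of all 11746 genes measured, and 0 were at least 2-fold higher, against 1.29% of all genes. The 10 were Ifit1, Ifit2, Ifit3, Rsad2, Zbp1, Oas3, Usp18, Igtp, Rtp4 and Lgals3bp. In 32 of the 36 the germ-free value was the lower by any amount, against 51.3% of all genes, and the median log2 change was -0.50, against -0.01. At 1.5-fold, 17 were lower, against 10.8% of all genes, and 1 was higher, against 6.19%. Of 47 other interferon-induced genes measured in colon, 2 were at least 2-fold lower (against 3.23% of all genes), with a median log2 change of -0.24. Both lists were chosen with earlier results of these data known.

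**Figure D2:**
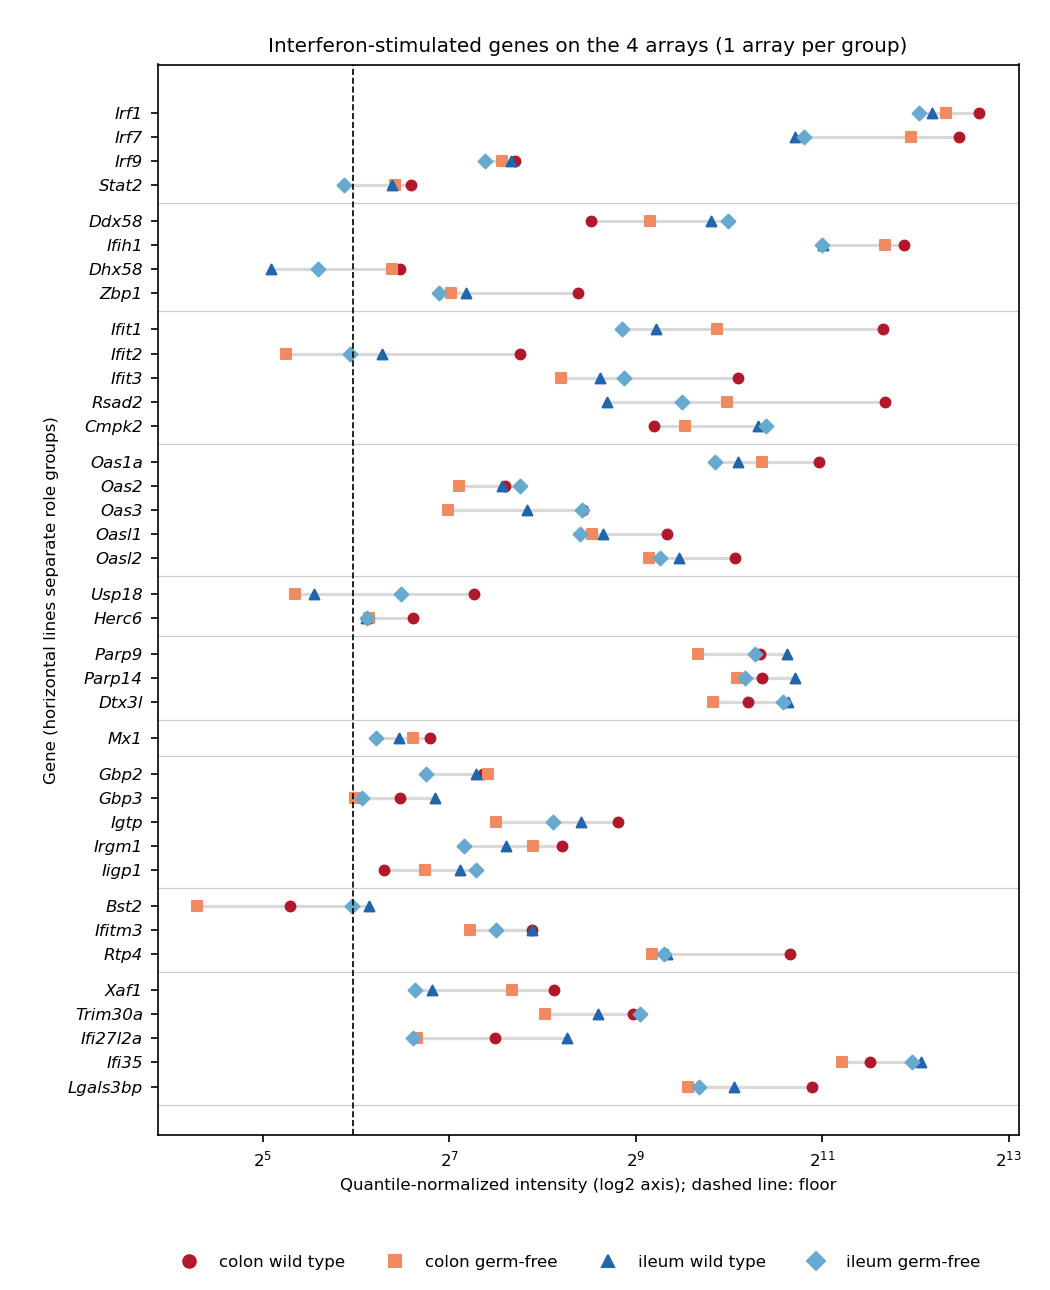
Quantile-normalized intensity (log2 axis) of the 37 interferon-stimulated genes above the floor (dashed line) on at least 1 array; each symbol is 1 array of pooled RNA, and horizontal lines separate the role groups. For 23 genes the wild type colon array (red circle) was the highest of the 4.

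Genes read by 2 bright probe sets show how far probe sets of a gene disagree on a change. Both are read from the same arrays, so this leaves out errors of capture, pooling, amplification and hybridisation, and the variation between mice. Over 2404 such genes, the difference between the colon log2 changes of both probe sets had an SD of 0.43, and 95% of the differences were within 0.86. In colon, 12 of the 36 interferon-stimulated genes differed by more than 0.86, all of them lower, and 4.99% of all genes were lower by that much. The spread was taken from probe sets above the 75th percentile only. Ifit2 and Usp18, among the 12, passed it on no array, so the spread does not cover genes as dim as these. The genes just short of 2-fold were Trim30a, with a log2 change of -0.94, and Oasl2, with -0.92.

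**Figure D3:**
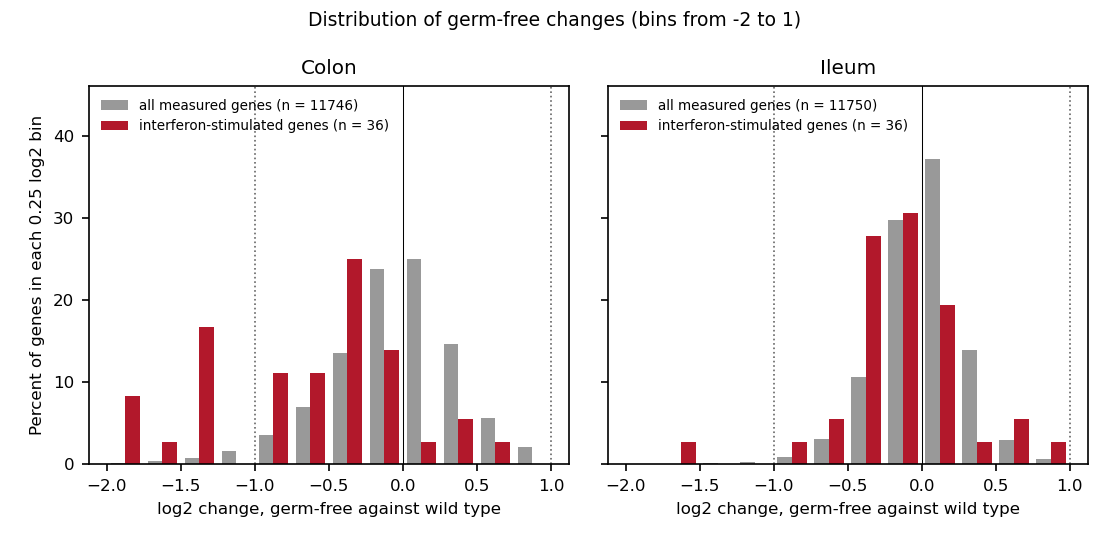
Percent of genes in each 0.25-wide bin of the log2 change between germ-free and wild type, for colon (left) and ileum (right); grey bars are all measured genes, red bars the 36 interferon-stimulated genes, and dotted lines mark 2-fold. Changes outside -2 to 1 are not drawn; the red bars below -1 in colon hold the 10 lower genes, and the single red bar below -1 in ileum is Ifi27l2a.

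The largest group difference in colon was in the Ifit genes, Rsad2 and Cmpk2, of which 4 of 5 were at least 2-fold lower (group median -1.79). Ifit1, a protein that binds foreign capped RNA and blocks its translation, read 3228 in wild type colon and 934 in germ-free colon, and 596 in wild type and 464 in germ-free ileum. It was 3.45-fold lower in germ-free colon and 1.28-fold lower in germ-free ileum. Wild type colon thus stood above the other 3 arrays, which were within a narrower range. Ifit3, a partner of Ifit1, read 1097 and 295 in wild type and germ-free colon and 394 and 468 in the corresponding ileum arrays. That is 3.72-fold lower in germ-free colon and 1.19-fold higher in germ-free ileum. A near-identical copy of Ifit3 lies in the same gene cluster, and the probe set may not tell them apart. Ifit2, which promotes death of infected cells, read 217 and 37.9 in colon and 77.6 and 61.3 in ileum. Both germ-free values were under the floor, so Ifit2 was at least 3.47-fold lower in germ-free colon and at least 1.24-fold lower in germ-free ileum.

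Rsad2 (viperin) makes a modified nucleotide that stops viral polymerases. It read 3255 in wild type and 1005 in germ-free colon, 3.24-fold lower, and 412 in wild type and 724 in germ-free ileum, 1.76-fold higher. A second probe set for Rsad2 moved alike, with 1550 and 485 in colon and 174 and 315 in ileum; the third read 277 and 168, then 188 and 186. Its neighbour on chromosome 12, the next protein-coding gene, is Cmpk2, a mitochondrial nucleotide kinase. Cmpk2 did not share the difference: it read 587 and 741 in colon, 1.26-fold higher in germ-free, and 1274 and 1353 in ileum. Its second probe set was under the floor on every array, and averaging it in turned the colon log2 change to -0.33.

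Active enzymes of the oligoadenylate synthetase family make the short signal that activates the nuclease RNase L. All 5 measured genes of the family were lower in germ-free colon and 1 was at least 2-fold lower (group median -0.80). Oas3 read 345 and 127 in wild type and germ-free colon, 2.72-fold lower, and 228 and 343 in wild type and germ-free ileum, 1.51-fold higher. Its germ-free ileum value was thus close to that of wild type colon. Oasl2, an oligoadenylate synthetase-like protein, read 1073 and 567 in colon, 1.89-fold lower, and 706 and 612 in ileum. Oasl1, which restrains the making of Irf7 protein, read 645 and 371 in colon, 1.74-fold lower, and 401 and 339 in ileum. Oas1a read 1993 and 1310 in colon, 1.52-fold lower, and 1097 and 923 in ileum. For these 3 genes wild type colon was again the highest array. Oas1a is close in sequence to Oas1g, with which its signal could be shared. Oas2, between 138 and 217 on the 4 arrays, had log2 changes of -0.49 in colon and 0.20 in ileum.

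Of the Isg15 system, Usp18 and Herc6 could be read. Usp18, which removes Isg15 from proteins and limits signalling at the type I receptor, read 154 in wild type colon, 40.6 in germ-free colon, 46.8 in wild type ileum and 89.3 in germ-free ileum. The middle values are under the floor, so Usp18 was at least 2.46-fold lower in germ-free colon and at least 1.43-fold higher in germ-free ileum. Herc6, a ligase for Isg15, lay between 69.1 and 97.8, near the floor, with log2 changes of -0.47 and 0.01.

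The nucleic acid sensors did not move together in colon: 1 of 4 was at least 2-fold lower (group median -0.15). Zbp1, which senses Z-form nucleic acid and can trigger cell death, read 334 and 130 in wild type and germ-free colon, 2.58-fold lower, and 145 and 119 in ileum. The second probe set of Zbp1 read 83.7 and 99.7 in colon, a log2 change of 0.25 in the other direction, so the call for Zbp1 rests on 1 probe set. Ddx58 (RIG-I), a sensor of viral RNA ends, went the other way, with 367 and 567 in colon, 1.55-fold higher in germ-free, and 894 and 1013 in ileum. It was the gene that was more than 1.5-fold higher in germ-free colon. Ifih1 (MDA5), a sensor of long double-stranded RNA, read 3751 and 3266 in colon and 2061 and 2039 in ileum, with log2 changes of -0.20 and -0.02. Dhx58, a regulator of both sensors, lay between 34.0 and 89.1.

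The transcription factors differed little. Irf1, which is induced by interferon gamma, read 6586 and 5129 in wild type and germ-free colon, 1.28-fold lower, and 4646 and 4191 in ileum. Irf7, the amplifier of type I interferon production, read 5660 and 3960 in colon, 1.43-fold lower, and 1670 and 1788 in ileum. Each of the 4 factors was lower in germ-free colon (group median -0.26) and 0 were so by 2-fold; for Irf9 the direction in colon turned with the scaling, from -0.14 to 0.08 in the values as deposited. Irf9 and Stat2, which act in the complex at the ISRE, ranged from 167 to 208 and from 58.5 to 96.4.

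Parp9 and Dtx3l, which form a complex in the response to DNA damage and interferon, and Parp14, a mono-ADP-ribosyltransferase, lie side by side on chromosome 16. Parp9 read 1287 and 811 in wild type and germ-free colon, 1.59-fold lower, and 1574 and 1242 in ileum. Parp14 read 1314 and 1090 in colon and 1668 and 1152 in ileum, where it was 1.45-fold lower. Dtx3l read 1177 and 908 in colon, 1.30-fold lower, and 1593 and 1528 in ileum. In these probe sets all 3 were lower in germ-free animals in both regions, by less than 2-fold, and all 3 were highest in wild type ileum. The ileum log2 change of Dtx3l was only -0.06. A second probe set of Parp14 went the other way in colon, with 186 and 211 (a log2 change of 0.19), and read 213 and 184 in ileum.

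Of the interferon gamma-induced GTPases, which attack the vacuoles of intracellular pathogens, 1 of 5 was at least 2-fold lower in germ-free colon (group median -0.31). Igtp read 447 and 181 in wild type and germ-free colon, 2.47-fold lower, and 341 and 276 in ileum. Irgm1, a regulator of the other immunity-related GTPases, read 296 and 239 in colon and 196 and 143 in ileum, with log2 changes of -0.31 and -0.46. Gbp2, Gbp3 and Iigp1 were dimmer, between 63.5 and 171 on all arrays. Iigp1 and Gbp2 were on the higher side in germ-free colon, with log2 changes of 0.44 and 0.05, and that of Gbp2 turned to -0.01 under median scaling. Gbp3 was 1.72-fold lower in germ-free ileum. Mx1, an antiviral dynamin-like GTPase, read 111 and 97.5 in colon and 87.8 and 74.5 in ileum.

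Rtp4, a receptor-transporting protein that interferon induces, read 1610 and 576 in wild type and germ-free colon, 2.80-fold lower, and 645 and 633 in ileum. Only wild type colon stood apart for Rtp4; its second probe set was not above the floor, and averaging it in turned the colon log2 change to 0.34. Ifitm3, which blocks the fusion of viruses with membranes, ranged from 149 to 237, with log2 changes of -0.67 in colon and -0.38 in ileum. Bst2 (tetherin), which holds budding virus at the cell surface, was between 19.6 and 70.6 and above the floor in wild type ileum alone.

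Lgals3bp, a secreted galectin-binding glycoprotein, read 1902 and 754 in colon, 2.52-fold lower in germ-free, and 1062 and 819 in ileum. Trim30a, a ubiquitin ligase family member that dampens inflammatory signalling, read 501 and 261 in colon, 1.92-fold lower, and 387 and 528 in ileum, 1.37-fold higher. Xaf1, which promotes apoptosis, read 279 and 203 in colon and 112 and 99.3 in ileum; in this probe set both colon arrays exceeded both ileum arrays. The second probe set of Xaf1 did not keep that order, with 127 and 99.2 in colon and 124 and 147 in ileum. Ifi35, an interferon-induced leucine zipper protein, read 2921 and 2380 in colon and 4271 and 3986 in ileum, so that here both ileum arrays were the higher. Ifi27l2a, a small hydrophobic interferon-induced protein, read 180 and 100 in colon, 1.79-fold lower, and 306 and 98.0 in ileum, 3.13-fold lower. Both germ-free values of Ifi27l2a were close together and below both wild type values.

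Most of the lower genes rest on few probes. Of the 38 genes, 23 had 1 probe set, and 7 of the 10 lower genes in colon had 1. With the floor raised to the 75th percentile, 5 of the 10 were still at least 2-fold lower, Zbp1, Oas3 and Igtp were not, and Ifit2 and Usp18 were not measured. Among 11 genes with 2 or more measured probe sets in colon, all probe sets pointed the same way in 8; the exceptions were Dhx58, Zbp1 and Parp14. In ileum this held for 5 of 9, the exceptions being Ddx58, Rsad2, Iigp1 and Xaf1.

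In ileum, the same genes differed less between germ-free and wild type. Of 36 measured genes, 1, Ifi27l2a, was at least 2-fold lower (2.78% against 0.698% of all 11750 genes) and 0 were at least 2-fold higher (against 0.23%). The germ-free value was the lower in 25 of 36, against 45.1% of all genes, and the median log2 change was -0.19, against 0.03. At 1.5-fold, Ifi27l2a and Gbp3 were lower (against 3.17% of all genes) and Rsad2 and Oas3 higher (against 2.4%). Of 2342 genes with 2 bright probe sets, 95% had a difference between probe sets within 0.63. Among the 36 genes, 3 differed by more, Ifi27l2a and Gbp3 being lower and Rsad2 higher. Of all genes, 4.31% differed by that much and 2.58% were lower by it. Gbp3 passed the 75th percentile on no array, so this spread does not cover genes as dim.

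Set side by side, the germ-free change was at least 2-fold lower in colon than in ileum for 9 of 35 genes measured in both regions (25.7% against 4.98% of all 11065 genes), and at least 2-fold higher for 0 (against 2.16%). The difference of the log2 changes was -2.51 for Rsad2, -2.14 for Ifit3, -2.03 for Oas3, -1.82 for Usp18, -1.48 for Ifit2, -1.46 for Rtp4, -1.43 for Ifit1, -1.39 for Trim30a and -1.08 for Zbp1. For Ifit2 both germ-free values were under the floor, so its difference is not a bound. The median over the 35 genes was -0.33, against -0.02 over all genes. In 23 of the 35 the germ-free array was lower in both regions, against 24.4% of all genes. With 1 array per group, the difference between the regions could not be tested.

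**Figure D4:**
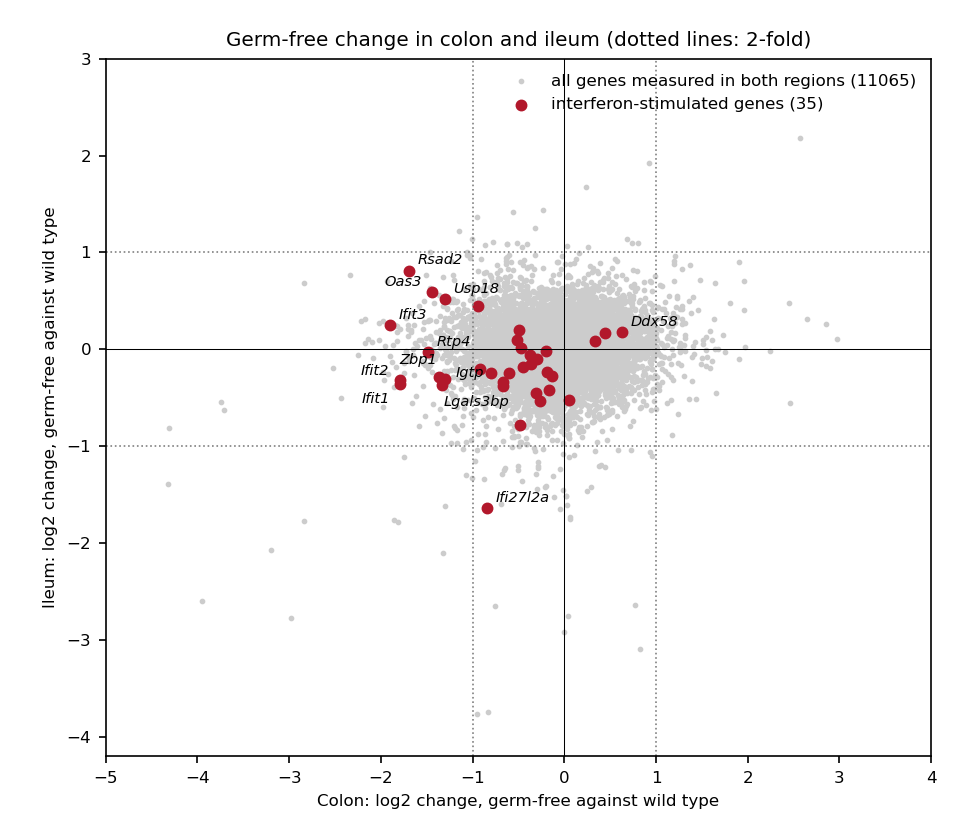
Log2 change between germ-free and wild type in colon (x axis) and ileum (y axis) for all 11065 genes measured in both regions (grey) and the 35 interferon-stimulated genes among them (red); dotted lines mark 2-fold. Red points reach below -1 on the x axis while most lie between -1 and 1 on the y axis, with Ifi27l2a as the exception.

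The regions themselves also differed in wild type mice. Of 37 genes measured, 9 were at least 2-fold lower in ileum than in colon (24.3% against 5.93% of all 12000 genes) and 2, Ddx58 and Cmpk2, were at least 2-fold higher (against 6.04%). The 9 were Irf7, Zbp1, Ifit1, Ifit2, Ifit3, Rsad2, Usp18, Rtp4 and Xaf1, led by Rsad2 at 7.90-fold and Ifit1 at 5.42-fold. For Zbp1 and Xaf1 this rests on 1 probe set: the second read 83.7 in wild type colon and 91.3 in wild type ileum for Zbp1, and 127 and 124 for Xaf1. By any amount, 26 of the 37 were lower in ileum, against 50.8% of all genes, and the median log2 difference was -0.50, against -0.01. Between the germ-free arrays, 3 of 35 genes, Irf7, Ifit1 and Xaf1, were at least 2-fold lower in ileum (against 5.88% of all genes), 2, Oas3 and Trim30a, were at least 2-fold higher (against 7.37%), and the median was 0.07, against 0.04. At 1.5-fold, 6 of the 35 were lower in germ-free ileum than in germ-free colon (against 13.4% of all genes) and 10 higher (against 17.2%). Here too the second probe set of Xaf1 differed, with 99.2 in germ-free colon and 147 in germ-free ileum. In the values as deposited that median was -0.10, with -0.11 over all genes. Irf7 was 3.39-fold lower in ileum in wild type and 2.22-fold lower in germ-free mice. The wild type colon array enters both this regional comparison and the colon comparison above, so the 2 sets of values are not independent of each other. It was the highest of the 4 arrays for 23 of 37 genes, against 26.5% of all genes; wild type ileum was the highest for 8 (against 20.9%), germ-free ileum for 5 (against 27.1%) and germ-free colon for 1 (against 25.5%).

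The share of genes with an ISRE core did not sort the changes sharply. In colon, 5 of 7 lower genes with a promoter window had a core (71.4%), as had 9 of the other 19 measured (47.4%). The median colon log2 change was -0.64 over 14 genes with a core and -0.46 over 12 without, and the median ileum change -0.25 over 15 and -0.16 over 12. Ifit2 and Lgals3bp were at least 2-fold lower in colon without a core in the window, and Ddx58 was higher with one.

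Other genes of the interferon pathway were read in the same way. Of 128 further pathway genes listed, 103 were matched and 77 measured in each region; 4 were at least 2-fold lower in germ-free colon (against 3.23% of all genes) and 1 in germ-free ileum (against 0.698%), and 0 were at least 2-fold higher in either (against 1.29% and 0.23%). The median log2 changes were -0.05 and -0.02. Of 16 interferon ligand genes, 10 were matched, 5 of these were above the floor on no array, and 0 of 3 measured in colon differed by 2-fold. Signal transduction genes (7 measured), genes of interferon induction (12), other interferon regulatory factors (2) and other interferon-induced genes (47) had colon medians of -0.03, 0.07, -0.14 and -0.24, with 0, 1, 0 and 2 at least 2-fold lower, and ileum medians of 0.06, 0.01, 0.02 and -0.06, with 0, 0, 0 and 1.

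Among the 6 receptor genes, 1 was at least 2-fold lower in colon (against 3.23% of all genes). Ifnar2, a chain of the type I receptor, read 207 and 40.2 in wild type and germ-free colon, at least 3.32-fold lower, and 102 and 128 in ileum; its other probe sets were not above the floor. Ifnar1, its partner, read 195 and 190 in colon and 319 and 228 in ileum. Only Ifnar2 of this pair differed in colon. Ifnlr1, the chain specific to lambda interferons, read 191 and 255 in colon and 291 and 384 in ileum, with log2 changes of 0.41 and 0.40. Il10rb, which it shares with other cytokines, read 3960 and 3269, then 3001 and 3198. Both chains of the interferon gamma receptor were measured on every array. Ifngr1 read 4018 and 5179 in colon and 4018 and 4003 in ileum, and Ifngr2 read 1584 and 1624, then 1994 and 1670.

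Of the other pathway genes past 2-fold, Cgas, the sensor of cytosolic DNA, read 325 and 148 in colon and 288 and 324 in ileum, but its second probe set read 62.7 and 141 in colon. Phf11d read 1217 and 405 in colon, a log2 change of -1.59, and 87.2 and 93.4 in ileum. Cd274, the checkpoint ligand PD-L1, read 240 and 90.7 in colon, 2.65-fold lower, and was under the floor in ileum. For both genes wild type colon was again the highest array. Znfx1, an antiviral helicase, read 151 and 147 in colon and 179 and 76.2 in ileum, where it was 2.35-fold lower.

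**Figure D5:**
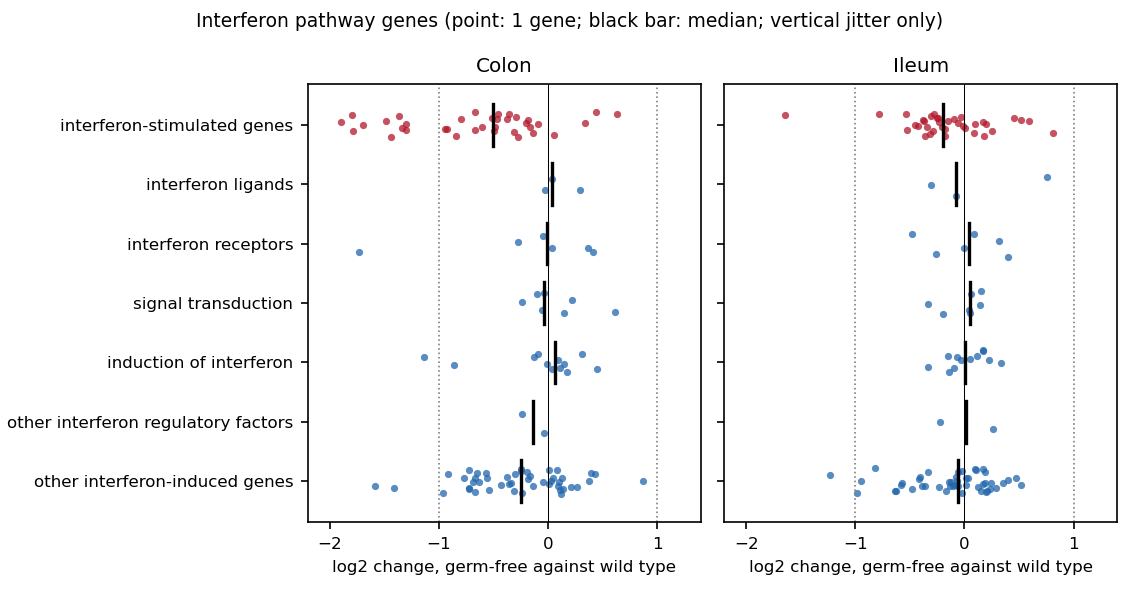
Log2 change between germ-free and wild type in colon (left) and ileum (right) for the interferon-stimulated genes (red) and 6 lists of other interferon pathway genes (blue); each point is 1 gene and each black bar a list's median. The lowest red point in colon is Ifit3 at -1.90. In the receptor list Ifnar2 reaches -1.73, a bound set by the floor. The ligand, receptor and signalling lists have 3, 6 and 7 genes measured in colon, against 36, so the extent of their points cannot be compared.

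Epithelial markers were high on all arrays, with all 11 genes of that list above the floor on each, including Epcam at 9687 to 11533, and 0 of 11 differing by 2-fold. Their summed intensity was 83373 and 90418 in wild type and germ-free colon and 97270 and 92629 in ileum. Markers of several other cell types had lower sums in germ-free colon, alongside the interferon-stimulated genes. For the counts that follow, 3.23% of all genes were at least 2-fold lower in germ-free colon and 0.698% in germ-free ileum. The plasma and B cell list (9 of 10 matched) summed to 11344 and 7416 in colon and 17486 and 8004 in ileum, with 2 of 4 measured genes at least 2-fold lower in colon and 2 of 6 in ileum; Cd79a, Ms4a1 and Tnfrsf17 were under the floor on all arrays. Much of that sum is Sdc1, which epithelium also expresses, with 4852 and 6464 in colon. The 2 genes at least 2-fold lower in colon differed far more than the sum. Igha, the IgA heavy chain, read 4609 and 501 in colon and 7204 and 1712 in ileum. Jchain, the joining chain of IgA, read 1549 and 197, then 4808 and 704. By any amount, 3 of the 4 measured genes of this list were lower in colon and 5 of the 6 in ileum. T and intraepithelial lymphocyte markers (11 of 12 matched) summed to 1321 and 882, then 1995 and 1283, with 2 of 5 at least 2-fold lower in each region, while Cd3d, Cd3e, Cd3g and Cd4 were under the floor throughout. Endothelial markers (10 of 10) summed to 1077 and 522, then 698 and 655, with 2 of 6 lower in colon and 0 of 6 in ileum, while Pecam1, Cldn5 and Esam were under the floor. Myeloid markers (11 of 11) summed to 2434 and 2253, then 4010 and 3310, with 1 of 8 lower in colon and 1 of 9 in ileum, while Cd68 and Itgax were under the floor. Of the markers of plasmacytoid dendritic cells, a strong source of type I interferon, 7 of 8 were matched (Bst2 is on both lists). The sums over these 7, 6818 and 5948, then 3662 and 3875, came mainly from Klk1. However, 4 of the 7, including Siglech, were under the floor on all arrays, so few could be read. At least 2-fold lower were 0 of 2 measured genes in colon and 0 of 3 in ileum. Fibroblast and smooth muscle markers (12 of 12) summed to 4417 and 3927, then 6763 and 4270, with 0 of 7 lower in colon and 4 of 11 in ileum. In bulk RNA, fewer cells of a type and less RNA per cell cannot be told apart. The part of these cells in the differences was not tested.

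Other measures also moved with the groups. Ileal enterocyte markers passed 2-fold upwards in germ-free colon in 2 of 5 measured genes (against 1.29% of all genes). By any amount 0 of these 5 markers were lower there, and their median log2 change was 0.79. The 2 genes past 2-fold were Fabp6 and Apoa1. Fabp6, the ileal bile acid-binding protein, read 767 and 6008 in wild type and germ-free colon and 16920 and 18190 in ileum. Apoa1 read 34.8 and 245, then 16058 and 16273. Of 6 colonocyte markers, 1, Aqp8, was at least 2-fold lower (against 3.23% of all genes), with 545 and 76.4 in colon, while Car1 read 14384 and 12438. The probe sets for 18S ribosomal RNA were lower on the germ-free arrays as deposited, with median log2 changes of -1.23 in colon and -0.93 in ileum. The change at the 5′ end minus that at the 3′ end was -0.48 in colon and -1.10 in ileum for Gapdh and -0.12 and -1.20 for Actb. The part of position along the gut and of RNA quality in the differences was not tested. Before normalization the median intensities of the arrays were 60.8 to 64.3, and the 75th percentiles 240 to 299, the highest being that of germ-free colon.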

How the data were processed

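RNA of laser-captured epithelium was amplified in 2 rounds from 40 ng and hybridised to 4 Affymetrix mouse arrays, 1 per group. The authors deposited linear-scale intensity values per probe set, for which the design text of the series names dCHIP2004; the options used in it for background and normalization were not stated in the sources used here. They hold 45101 probe sets, 64 of them controls; of the rest 34945 name 1 gene in the platform annotation, 932 several and 9160 none, and 0 symbols needed updating against RefSeq.

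Because the medians of the brighter probe sets differed by up to 0.28 (log2) between arrays, more than the 0.25 allowed, log2 intensities were quantile-normalized without controls, after values under 1 were set to 1. Each gene was read from its brightest probe set naming it alone. The floor was the pooled median, 62.4, and replaced lower values, so that a change against it is a bound ("at least"). In a comparison, genes were taken as measured when 1 of the 2 arrays was above the floor, and as different at 2-fold. Fold changes are ratios of normalized intensities; with 1 array per group, the number of arrays limits the precision and no test is possible. The steps were tested on simulated data and run in Python 3.11.15 with NumPy 2.4.6, pandas 2.3.3 and Matplotlib 3.10.9.

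Values were given for each gene at least 2-fold different in a germ-free comparison or above the 75th percentile on any array, and for others by range; of the pathway genes, for the receptors and those past 2-fold. The 41 genes, the pathway and cell type lists and the alternatives were chosen with earlier results of these data known. The alternatives were the values as deposited, median scaling, other floors or none, a filter on dim genes, averaging all probe sets per gene, and dropping probe sets whose names mark matches to more than 1 transcript (shared probe sets).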

Additional observations from a re-analysis of the deposited data

Results flagged for a closer look

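Rsad2 and Oas3 went opposite ways in the 2 regions, each by more than 1.5-fold. Rsad2 was 3.24-fold lower in germ-free colon and 1.76-fold higher in germ-free ileum, a difference of the log2 changes of -2.51. Oas3 was 2.72-fold lower in germ-free colon and 1.51-fold higher in germ-free ileum, a difference of -2.03. With 1 array per group, neither difference was tested. Of the 3 probe sets of Rsad2, 2 showed both directions (log2 changes of -1.69 and 0.81, and of -1.68 and 0.86), while the third gave -0.72 in colon and -0.02 in ileum. Oas3 has 1 probe set.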

How the results depend on the processing

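The 10 genes lower in germ-free colon were all still at least 2-fold lower in the values as deposited, under median scaling, with the floor at the 25th percentile and without a floor. After averaging all probe sets per gene 8 of the 10 were, without Zbp1 and Rtp4 (Rtp4 then read 0.34), and without shared probe sets (those marked as matching more than 1 transcript) 9 were, since Zbp1 then read 0.25. A floor at the 75th percentile, which leaves fewer genes measured and shortens the changes of dim ones, gave 5 lower genes in colon, 0 in ileum, 5 between the wild type regions and 5 for the difference between the regions' changes. For ileum against colon in wild type, genes at least 2-fold higher numbered 0 after that averaging and 1 without shared probe sets. In germ-free mice, 1 gene was at least 2-fold lower under median scaling, and those at least 2-fold higher numbered 1 as deposited, 4 with the floor at the 25th percentile, 1 with it at the 75th and 1 without shared probe sets; the median there turned to -0.099 as deposited. The cause of these shifts other than the floor's was not tested. The other 92 recomputed group-level values kept their direction and stayed close in size (counts within 1.5 times). Of the single-gene values, 479 moved by less than the SD between probe sets in that comparison. Another 15 moved by more, and 2 of genes past 2-fold reversed. Small changes among the 479 could still turn in sign, as those of Irf9 and Gbp2 in colon and Herc6 in ileum did between scalings. Scaling moved the colon median of all genes from -0.01 to 0.09 as deposited and to -0.16 under median scaling, with 32, 31 and 33 of 36 interferon-stimulated genes lower. No paired analysis was possible because each group is 1 array with no replicate numbers to share, and for the same reason no replicate could be left out.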

Other observations

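Some other interferon-induced genes differed between the regions more than between germ-free and wild type mice; these were chosen after their values were seen. Of 50 such genes measured between the wild type arrays, 6 were at least 2-fold lower in ileum and 4 higher, and between the germ-free arrays 6 of 50 were lower and 7 higher. Over all genes these shares were 5.93% and 6.04%, then 5.88% and 7.37%. Isg20, an antiviral exonuclease, read 383 and 461 in wild type and germ-free colon and 43.2 and 28.1 in ileum. Trim30d went the other way, with 437 and 462 in colon and 2119 and 1645 in ileum. The chemokine Cxcl11, which draws T cells, read 78.9 and 83.9 in colon and 268 and 371 in ileum. Ddx60, a helicase, read 484 and 326 in colon and 157 and 102 in ileum. In each of these 4 genes both arrays of one region lay above both arrays of the other.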
